A study of Mus musculus with 384 samples.

Results

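Expression of the genes for synaptic vesicles and regulated exocytosis was examined in single dopamine (DA) neurons of the mouse midbrain. The set was taken by symbol: the synaptotagmins (*Syt*), syntaxins (*Stx*), synaptobrevins (*Vamp*), SNAP proteins (*Snap*), SV2 proteins (*Sv2*), complexins (*Cplx*), *Rab3*, *Rims*, *Unc13*, *Stxbp*, *Doc2*, and synapsin (*Syn*) families, with synaptophysin (*Syp*) and rabphilin (*Rph3a*). The rule for membership uses symbols and a limit on reads. Of the 12105 genes past a limit of 10 reads in no fewer than 10 of the cells used, 64 belong to the set, out of 76 matching symbols. The 12 that missed the limit were *Syt6*, *Syt8*, *Syt15*, *Vamp3*, *Vamp5*, *Vamp8*, *Stx11*, *Stx19*, *Cplx3*, *Cplx4*, *Unc13d*, and *Doc2g*. The 64 genes were sorted by role into 17 synaptotagmins and related C2 domain proteins (*Syt*, *Doc2*, and *Rph3a*), not all of which bind calcium, 9 SNAREs of exocytosis, 12 other SNAREs, 10 SNARE regulators, 8 genes of the active zone and vesicle tethering, and 8 of the vesicle membrane and coat.

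The cells came from 8 DAT-IRES-Cre;Ai9 mice of the C57BL6/J strain, aged 24–36 d, 5 labelled male (mice 2, 3, 5, 7, and 8) and 3 labelled female (mice 1, 4, and 6), with no treatment. All mice carried the Cre allele and the reporter, so there was no group without them. Cre made under the dopamine transporter gene *Slc6a3* marks a cell with tdTomato permanently, so that cells which later express little of it are still sorted, and the dissected piece included the hypothalamus. Each sorted cell was captured on a Fluidigm C1 chip and sequenced as a library of its own, with 1 chip run per mouse, and the animal and its run cannot be told apart. The libraries of mice 1–3 lay on 1 sequencing lane and those of mice 5–8 on another, with mouse 4 on both. Cells were compared by sex and, within mice, by classes defined on reads of *Th*, *Neurod6*, *Aldh1a7*, *Slc17a6*, and *Gad1*.

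A synaptic vesicle is filled by a transporter, tethered at the active zone by Rab3 and its RIM partners, and primed by Munc13 proteins (*Unc13*). A SNARE complex of synaptobrevin on the vesicle and of syntaxin and SNAP-25 on the plasma membrane drives fusion. Complexin binds that complex, and a synaptotagmin that senses calcium triggers release. DA neurons use these proteins at release sites along the axon and also release DA from the cell body and dendrites.

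The sequence before the start site is shown for 4 genes on which the results turn: *Cplx1*, *Syt1*, and *Rph3a*, which passed the test in a comparison below, and *Syt10*. The sequences are RefSeq promoters of GRCm38.p6 on the minus strand, the strand of each gene, and end before the outermost annotated transcript start. *Cplx1* is at chr5:108550028-108550277, *Syt1* at chr10:109010981-109011225, *Rph3a* at chr5:121010117-121010342, and *Syt10* at chr15:89841981-89842110. Capitals mark the only match found to the motifs searched.
Cplx1: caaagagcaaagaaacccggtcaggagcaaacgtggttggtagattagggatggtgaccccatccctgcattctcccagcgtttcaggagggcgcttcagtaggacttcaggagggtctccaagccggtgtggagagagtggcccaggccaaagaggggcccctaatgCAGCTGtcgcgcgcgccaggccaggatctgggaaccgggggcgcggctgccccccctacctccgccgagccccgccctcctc
Syt1: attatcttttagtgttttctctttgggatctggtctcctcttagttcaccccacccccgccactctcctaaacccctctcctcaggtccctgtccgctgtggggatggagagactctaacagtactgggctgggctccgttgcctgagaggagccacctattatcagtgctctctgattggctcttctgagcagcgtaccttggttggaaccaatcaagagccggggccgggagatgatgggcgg
Rph3a: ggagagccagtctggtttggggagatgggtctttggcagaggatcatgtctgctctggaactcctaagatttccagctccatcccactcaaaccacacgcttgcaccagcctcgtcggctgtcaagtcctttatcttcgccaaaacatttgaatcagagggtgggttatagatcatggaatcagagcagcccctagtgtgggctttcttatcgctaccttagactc
Syt10: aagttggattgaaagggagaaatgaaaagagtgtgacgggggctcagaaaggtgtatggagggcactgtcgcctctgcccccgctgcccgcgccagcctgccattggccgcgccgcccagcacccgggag

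In the 250 bases before the RefSeq start, printed or not, on both strands, 4 motifs were searched: AAAGGTCA (the site named NBRE, bound by the DA neuron factor NR4A2), the E-box letters CAGATG and CAGCTG (E-boxes are bound by basic helix-loop-helix factors such as NEUROD6), and TGACGTCA (the cyclic AMP response element). No motif overlaps another. *Cplx1* held CAGCTG, 82 bases before its start, and the other 3 genes held none of the 4 letter strings in this window. RefSeq lists 3 promoters for *Rph3a* and 2 for *Syt1*, and only the one nearest the outer end of each gene was searched. CAGCTG was found for 11 of the 48 members with a promoter sequence (22.9%) and for 12.7% of 27025 promoters. CAGATG was found for 3 members (6.25%) against 14.5%, TGACGTCA for 1 member (*Syn1*, 2.08%) against 1.60%, and AAAGGTCA for no member against 1.31%. The GC content of the window had a median of 61% over the members and 52% over all promoters.

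Cells with 500000 counted reads or more were used, 54.4% of the 384 deposited (median 780466 reads): 18, 34, 45, 12, 38, 17, 24, and 21 cells of mice 1 to 8. Their counts were summed per mouse to 8499655–32834172 reads. Median depth per class of cells ran from 705153 reads in *Th*-poor to 810098 in *Neurod6*+ cells. The DA neuron markers *Th*, *Slc6a3*, *Slc18a2*, and *Ddc* reached 10 reads in 94.7–98.6% of these cells, and *Pitx3* in 15.3%. At least 2 oligodendrocyte or astrocyte markers reached 10 reads in 12 cells, of which mice 1 and 3 had 4 each. Levels are given in CPM (counts per 1000000 counts) of the summed cells; a sum does not separate the share of cells with a transcript from the amount per cell. Between single genes, levels are compared only as CPM per kb of exon, as mean ± SD over the 8 mice.

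The members together held 22254 ± 3823 CPM, from 15519 to 29155 per mouse. A member had a median level of 49.4 CPM against 27.0 CPM over all genes tested, not corrected for exon length, and at least 10 reads in a median of 59.3% of cells against 40.2%. At least 10 reads were counted for 42 members in 50% of cells or more, for 15 in 90% or more, and for 4 in under 10%.

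The SNAREs of exocytosis were led by *Snap25*, the plasma membrane SNAP, at 2628 ± 957.7 CPM per kb, the highest level in the set. *Vamp2*, the main synaptobrevin of neurons, followed at 84.9 ± 15.5, and the syntaxins *Stx4a* (24.7 ± 6.74) and *Stx1a* (22.9 ± 8.51) did not differ beyond their SD. *Vamp1* was at 3.52 ± 2.27 and *Snap23*, the SNAP of non-neuronal cells, at 2.97 ± 4.28, where mouse 1 held 13.4 and the other mice 0.311–2.78 (mean 1.47 without mouse 1). *Snap25* varied from 1313 CPM per kb in mouse 1 to 4741 in mouse 3.

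Among the SNARE regulators, *Cplx1* (complexin 1) stood at 465.4 ± 283.7 CPM per kb and *Cplx2* at 42.5 ± 8.65. *Cplx1* varied more between mice than *Cplx2*, from 166.05 in mouse 1 to 1049 in mouse 3 (coefficient of variation 61.0%, against 20.4% for *Cplx2*). *Stxbp2* (6.69 ± 9.61), known from secretion outside neurons, was at 30.2 in mouse 1 and 1.59–5.75 in the other mice (mean 3.33 without mouse 1). *Stxbp5* (tomosyn) was at 4.57 ± 1.93. It held 18.4, 23.6, and 22.6 CPM in mice 1–3, which shared a sequencing lane, and 46.3–61.6 CPM in the other mice, without overlap. The part of the lane in these values was not tested. The priming factors *Unc13a* (3.20 ± 1.12), *Unc13b* (0.778 ± 0.275), and *Unc13c* (4.33 ± 2.65) were low, and those of *Unc13a* and *Unc13c* overlapped within their SD.

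Of the synaptotagmins and related C2 domain proteins, *Syt4* was highest at 735.5 ± 318.9 CPM per kb, then *Syt1*, a fast sensor of release, at 353.4 ± 98.8, *Syt11* at 257.7 ± 23.8, *Syt5* at 196.9 ± 64.7, and *Syt17* at 83.6 ± 16.8. *Syt4* and *Syt11* belong to the synaptotagmins that lack calcium binding at sites the others use. Neighbors in this order overlapped within 1 SD, except that *Syt17* lay below *Syt5*. *Rph3a*, a Rab3 effector with 2 C2 domains, was at 34.2 ± 6.43 and *Syt10*, known from peptide secretion in the olfactory bulb, at 16.7 ± 9.20. *Syt2*, the fast sensor of the hindbrain, was the lowest of this list at 0.425 ± 0.321, with at least 10 reads in 5.74% of cells. *Doc2a* (1.95 ± 1.17) and *Doc2b* (1.31 ± 1.18) were near it.

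The vesicle membrane was represented by *Syp* at 284.2 ± 51.9 CPM per kb, *Sv2a* at 89.2 ± 16.8, the clathrin adaptor *Snap91* at 67.7 ± 15.7, *Syn1* at 27.2 ± 14.3, and *Syn2* at 20.4 ± 8.29. *Sv2b* (14.8 ± 7.68) and *Sv2c* (7.56 ± 3.17) were each below *Sv2a*, and *Syn3* was at 7.68 ± 2.64. Among tethering genes the order was *Rab3a* (501.8 ± 52.9), *Rab3c* (153.9 ± 64.4), *Rab3b* (65.7 ± 42.1), *Rims3* (19.7 ± 3.80), and *Rims2* (11.9 ± 4.18), and *Rab3d* was at 0.711 ± 0.353. *Rims1* stood at 5.28 ± 1.24 from 5907 reads, and 741 more reads lay on a second entry for that symbol that was not added. The other SNAREs, many but not all of which serve endosomes and the Golgi, were led by *Snap47* (660.5 ± 121.1), *Stx12* (64.2 ± 10.3), *Stx7* (35.8 ± 7.98), *Vamp4* (28.9 ± 5.64), and *Stx5a* (12.8 ± 5.54). *Rab3a* and *Syt11* were the steadiest of the genes above over mice, with coefficients of variation of 10.5% and 9.25%, against a median of 36.4% over the members and 42.1% over all genes.

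**Figure D1:**
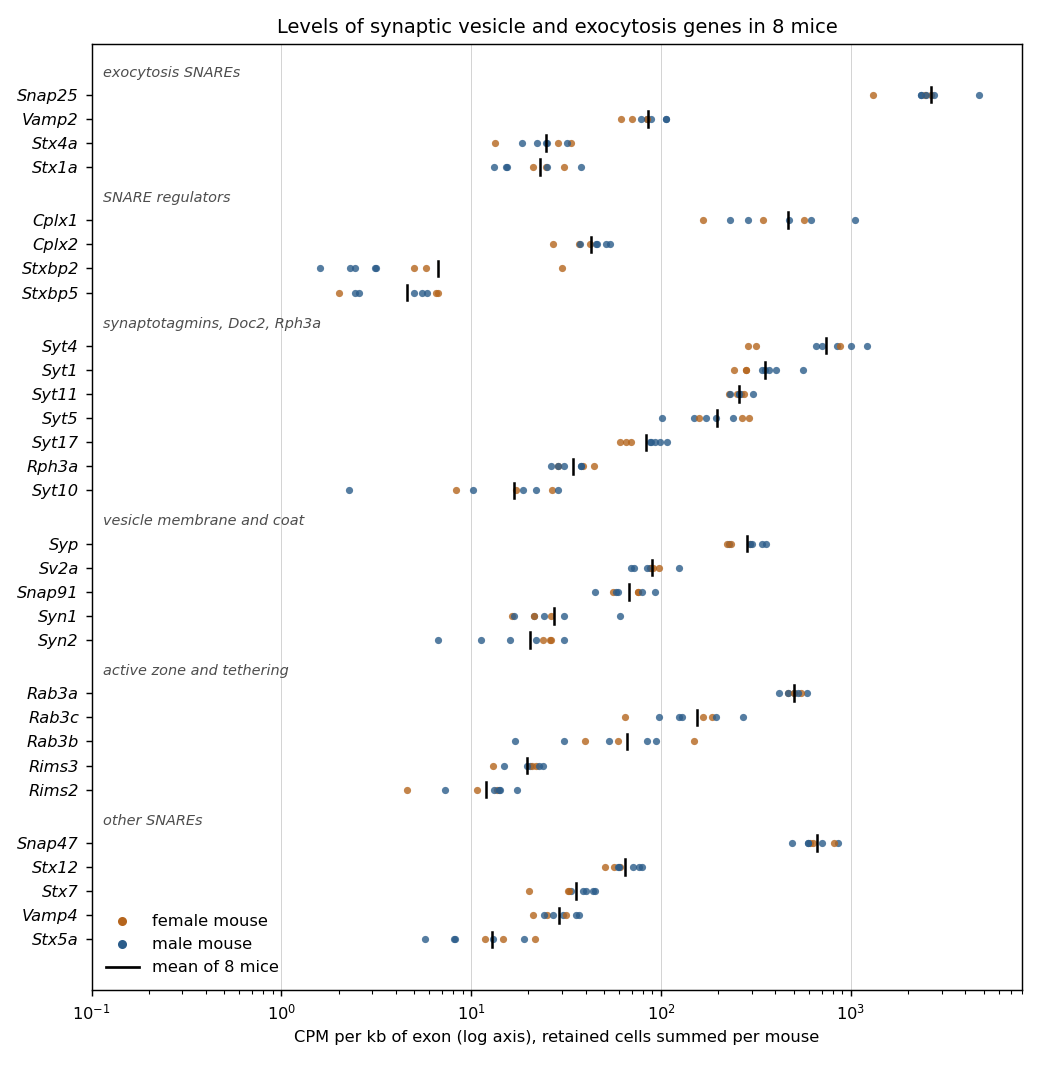
Level of members from the 5 highest of each role, with *Rph3a* and *Syt10*, in CPM per kb of exon on a log axis; each point is 1 mouse, colored by labelled sex, and the bar is the mean of 8 mice. *Snap25* lies highest, *Rab3a* and *Syt11* show the tightest points, and *Cplx1*, *Rab3b*, and *Syt10* spread widely.

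Within the *Th*-rich cells (at least 1000 CPM of *Th*), 86.6% of those used, the members differed in how evenly single cells expressed them. Between the cell at the 10th and the one at the 90th percentile, *Snap25* ran from 3121 to 11656 CPM, *Rab3a* from 518.7 to 1299, and *Syt1* from 750.4 to 3311. *Cplx1* ran from 13.6 to 3104 CPM around a median of 1077, a far wider spread. *Rph3a* ran from 1.22 to 420.5 with a median of 100.8, and *Syt10*, with a median of 0, reached 83.1 at the 90th percentile. Over all cells used, *Rph3a* had at least 10 reads in 75.6% and *Syt10* in 34.4%.

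*Th*-poor cells (under 1000 CPM of *Th*) were compared with *Th*-rich cells of the same mice to ask whether tdTomato+ cells with little tyrosine hydroxylase, the enzyme that makes the DA precursor, carried the same release genes. Of the 64 members, 3 fell in *Th*-poor cells and 0 rose (0.0826% of all genes rose): *Cplx1*, *Syt1*, and *Syt17*, 1 SNARE regulator and 2 synaptotagmins. That is 4.69% of the members, against 0.182% of all genes that fell. At an unadjusted p under 0.05, 11 members (17.2%) were lower, against 6.44% of all genes, and 1 was higher (1.56%, against 4.63%). The median log2 fold change was -0.17 over the members and 0.07 over all genes. Mice 1, 2, 4, 5, and 6 had at least 3 cells in each class, with 4–7 *Th*-poor and 8–34 *Th*-rich cells, and values are given below in that order of mice.

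*Cplx1* was at 38.7, 132.7, 38.0, 79.5, and 50.0 CPM in *Th*-poor cells and at 546.8, 1162, 1165, 1471, and 1649 CPM in *Th*-rich cells. The classes did not overlap, and *Cplx1* was lower in the *Th*-poor cells of each mouse. It fell 16.9-fold (log2 fold change -4.08, SE 0.45, adjusted p = 0.0021; edgeR quasi-likelihood test with Benjamini-Hochberg adjustment, as for every adjusted p below unless another tool is named). *Syt1* was at 388.1, 616.8, 169.9, 573.8, and 363.9 CPM in *Th*-poor and 1613, 1861, 2025, 2918, and 1698 CPM in *Th*-rich cells. Again no mouse's *Th*-poor value reached the lowest *Th*-rich value, and *Syt1* fell 4.58-fold (log2 fold change -2.20, SE 0.33, adjusted p = 0.021). *Syt17*, a synaptotagmin known from trafficking through the secretory pathway, was at 85.4, 85.1, 11.3, 60.7, and 47.9 CPM in *Th*-poor and 306.9, 341.5, 374.4, 371.4, and 268.7 CPM in *Th*-rich cells. It fell 5.49-fold, also without overlap (log2 fold change -2.46, SE 0.46, adjusted p = 0.0497).

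Single cells, pooled over all 8 mice and so mostly the cells already summed above, differed in the same direction. *Cplx1* was under 50 CPM in 16 of 28 *Th*-poor cells (57.1%) and in 28 *Th*-rich cells (15.5%). *Syt17* was under 50 CPM in 20 *Th*-poor cells (71.4%) and 21 *Th*-rich cells (11.6%). *Syt1* was under 50 CPM in only 2 *Th*-poor cells and 1 *Th*-rich cell, with medians of 339.9 and 1963 CPM.

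*Sv2c* encodes a vesicle glycoprotein known for its expression in DA neurons and the basal ganglia. It was at 3.91, 0, 5.48, 0.336, and 4.76 CPM in *Th*-poor and 91.0, 69.5, 218.3, 67.8, and 64.3 CPM in *Th*-rich cells, and did not pass with edgeR (log2 fold change -5.12, SE 0.97, adjusted p = 0.0514). It passed with DESeq2 (adjusted p = 1.5e-07), limma (0.0095), and edgeR with filterByExpr (0.043), cells of at least 100000 counts (0.03), or a *Th* limit of 300 CPM (0.042), with a range over all alternatives of 1.5e-07 to 0.72. With cells of at least 100000 counts, 8 mice had both classes and the log2 fold change of *Sv2c* was -2.78. Pooled over all 8 mice, the highest of the 28 *Th*-poor cells held 29.2 CPM of *Sv2c*, whereas 92 *Th*-rich cells (50.8%) had 50 CPM or more. The log2 fold changes of its paralogs were -0.10 for *Sv2a* (adjusted p = 0.92) and -1.23 for *Sv2b* (adjusted p = 0.71).

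Other members with 1 direction in each of the 5 mice did not pass with edgeR. *Cplx2* was at 89.5, 27.5, 28.0, 7.38, and 105.9 CPM in *Th*-poor and 274.8, 256.2, 192.7, 276.02, and 209.8 CPM in *Th*-rich cells, without overlap (log2 fold change -2.16, SE 0.58, adjusted p = 0.15). *Syt7*, a slow calcium sensor linked to somatodendritic DA release, averaged 8.31 ± 7.95 CPM and 47.8 ± 13.9 CPM (log2 fold change -2.48, SE 0.76, adjusted p = 0.2), and passed with DESeq2 (adjusted p = 0.017, range over alternatives 0.017 to 0.83). *Snap25* averaged 3038 ± 855.2 CPM and 5805 ± 1423 CPM (log2 fold change -0.89, SE 0.26, adjusted p = 0.17), and *Rab3c* 755.2 ± 237.5 CPM and 1484 ± 572.4 CPM (log2 fold change -0.94, SE 0.33, adjusted p = 0.26). In the other direction, *Doc2b*, a calcium sensor of spontaneous release, averaged 14.2 ± 14.6 CPM in *Th*-poor and 1.70 ± 1.35 CPM in *Th*-rich cells (log2 fold change 3.12, SE 1.21, adjusted p = 0.35), and its fold change turned to -0.95 with a *Th* limit of 300 CPM. *Rph3a* (-0.33) and *Syt10* (-0.39) had adjusted p of 0.82 and 0.94. By role, 16 members were lower in *Th*-poor cells of every mouse (25%, against 9.95% of all genes) and 2 higher (3.12%, against 3.36%), and the lower ones were spread over each of the 6 roles.

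Of 34 other genes of the release pathway that were tested, 1 fell and 0 rose: *Slc18a2*, the transporter that loads DA into vesicles, at 413.5 ± 121.1 CPM in *Th*-poor and 1893 ± 512.2 CPM in *Th*-rich cells (log2 fold change -2.15, SE 0.25, adjusted p = 0.0027). *Slc6a3* also fell (log2 fold change -2.86, SE 0.27, adjusted p = 3.7e-04), as did *Th*, the gene that defines the classes (-5.84 on the log2 scale).

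The *Th*-poor class, counted over all 8 mice, was mixed. It held 20 *Slc17a6*+ cells, 4 *Gad1*+ cells, and 5 with glial markers, and 4 of its cells were under 50 CPM of *Snap25*, 2 of which had glial markers. The summed astrocyte markers were at 0 to 714.7 CPM in *Th*-poor and 0 to 1.59 CPM in *Th*-rich cells over the 5 mice, the oligodendrocyte markers at 7.05 to 117.2 and 14.3 to 72.3 CPM, and the glutamate neuron markers at 141.9–1485 and 113.2–182.1 CPM. Without the cells with glial markers, and likewise without *Gad1*+ cells, *Cplx1* and *Syt1* still passed and *Syt17* did not (log2 fold change -2.27 and -3.03, adjusted p = 0.072 and 0.055). With the mouse as a block, *Cplx1* and *Syt1* passed and *Syt17* did not (adjusted p = 0.13, range over all alternatives 8e-05 to 0.72). *Cplx1* lost its call without mouse 5 (adjusted p = 0.059, range 1.6e-16 to 0.72), *Syt1* without mouse 1, 5, or 6 (0.065, 0.14, and 0.2, range 1.9e-06 to 0.72), and *Syt17* without mouse 1, 2, 5, or 6 (0.089, 0.093, 0.2, and 0.25). The adjusted p of *Syt17*, close to the threshold, was also above it with relative log expression size factors (0.059), no gene filter (0.066), cells of at least 100000 counts (0.15), cells thinned to 500000 counts (0.087), and a *Th* limit of 300 CPM (0.077). With a *Th* limit of 3000 CPM, 7 mice had both classes. The log2 fold changes of *Cplx1*, *Syt1*, and *Syt17* were then -1.96, -1.24, and -1.35 and none passed (adjusted p = 0.24, 0.25, and 0.28). The limit and the set of mice changed together, and the part of each in the smaller falls was not tested. With at least 5 cells per mouse and class, which left 2 mice, none of the 3 passed (each adjusted p = 0.72), with log2 fold changes of -3.20, -1.68, and -1.83. Members called numbered 1, 2, 0, and 1 without mouse 1, 2, 5, and 6 (against 0.157%, 0.223%, 0.0248%, and 0.0413% of all genes), and 3 without mouse 4 (against 0.0991%).

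**Figure D2:**
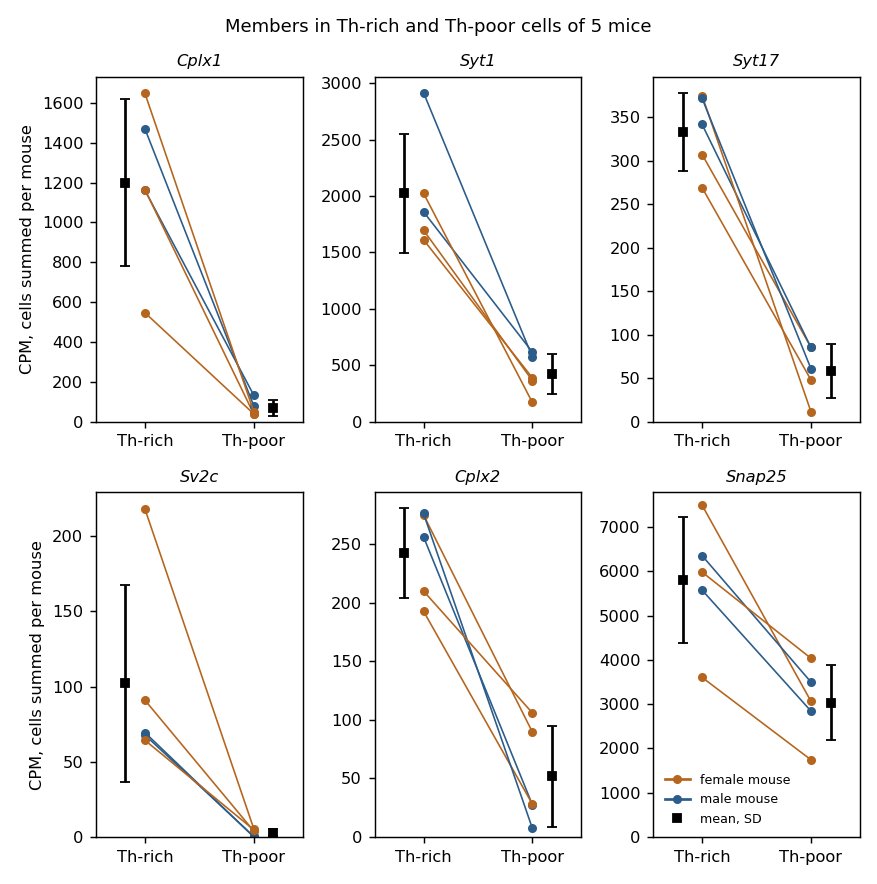
CPM of 6 members in the *Th*-rich and *Th*-poor cells of 5 mice; each line joins the classes of 1 mouse, colored by labelled sex, and squares show mean and SD. Every line falls, and the classes do not overlap for *Cplx1*, *Syt1*, *Syt17*, *Sv2c*, and *Cplx2*.

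Among *Th*-rich cells, those with at least 10 reads of *Neurod6*, the transcription factor that marks a ventromedial population of the ventral tegmental area, were compared with the rest in mice 1, 2, 3, 5, 7, and 8 (3–10 and 8–36 cells per mouse). The Rab3 effector *Rph3a* was the 1 member that fell in *Neurod6*+ cells and 0 members rose, which is 1.56% of the members, against 0.0248% of all genes that fell and 0.0661% that passed in either direction. At an unadjusted p under 0.05, 5 members were lower (7.81%, against 3.11% of all genes) and 4 higher (6.25%, against 2.70%).

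*Rph3a* was at 36.5, 74.2, 92.0, 74.8, 65.0, and 63.4 CPM in *Neurod6*+ cells and 293.4, 177.01, 131.1, 211.3, 288.9, and 217.8 CPM in *Neurod6*- cells of these mice. The highest *Neurod6*+ value lay below the lowest *Neurod6*- value. *Rph3a* fell 3.13-fold (log2 fold change -1.64, SE 0.26, adjusted p = 0.0454). At least 10 reads of *Rph3a* were counted in 61.8% of *Neurod6*+ and 80.5% of *Neurod6*- cells, as means over mice, with 2 of 6 mice higher in *Neurod6*+ cells (two-sided exact permutation test over mice, p = 0.25, adjusted p = 0.86 over 12 tests).

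*Syt10* went the other way, without passing with edgeR. It was at 124.3, 41.0, 13.4, 168.4, 101.04, and 45.4 CPM in *Neurod6*+ and 13.2, 9.37, 2.31, 6.42, 11.6, and 38.7 CPM in *Neurod6*- cells, higher in *Neurod6*+ cells of 6 of 6 mice but with overlap (log2 fold change 2.65, SE 0.67, adjusted p = 0.25). It passed with DESeq2 (adjusted p = 0.0032, range over alternatives 0.0032 to 0.7). It reached 10 reads in 3 of 3, 6 of 10, 3 of 8, 5 of 6, 8 of 10, and 9 of 10 *Neurod6*+ cells and in 1 of 8, 3 of 19, 2 of 36, 3 of 28, 4 of 12, and 6 of 10 *Neurod6*- cells. The mean share was 75.1% against 23.0%, higher in 6 of 6 mice (exact permutation test, p = 0.03125, the smallest that 6 mice allow; adjusted p = 0.19 over 12 tests). After thinning each cell to 500000 counts the shares were 69.7% and 22.4%. *Syt10* is among the genes the study listed for a cluster of these same cells, so its direction here is not independent evidence.

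*Syt17* was at 366.2–761.9 CPM (median 461.4) in *Neurod6*+ and 168.9–378.1 CPM (median 282.96) in *Neurod6*- cells, higher in 6 of 6 mice, and did not pass with edgeR (log2 fold change 0.86, SE 0.23, adjusted p = 0.27). It passed with DESeq2 (adjusted p = 0.032) and was the 1 member that passed with limma (0.033; 1.56%, against 0.446% of all genes), where *Rph3a* did not (0.15). The range for *Syt17* over alternatives was 0.032 to 0.7. *Unc13c*, a Munc13 isoform, averaged 83.6 ± 40.3 and 35.8 ± 16.2 CPM (log2 fold change 1.26, SE 0.44, adjusted p = 0.57). *Syn2*, which tethers vesicles of the reserve pool, averaged 42.2 ± 24.9 and 96.5 ± 36.4 CPM (log2 fold change -1.14, SE 0.46, adjusted p = 0.73). *Cplx1* averaged 619.6 ± 589.9 and 1307 ± 704.3 CPM (log2 fold change -1.02, SE 0.55, adjusted p = 0.9), and *Syt7* 22.4 ± 9.19 and 46.3 ± 21.3 CPM (log2 fold change -0.99, SE 0.40, adjusted p = 0.74). *Rph3a*, *Cplx1*, *Rab3c*, *Snap91*, *Syn2*, and *Syt7*, 6 members in all, had lower values in *Neurod6*+ cells of each mouse (9.38%, against 4.16% of all genes), and 5 had higher values in each (7.81%, against 2.22%). *Syt1*, at 2057 ± 208.8 and 1899.7 ± 630.4 CPM, had a log2 fold change of 0.17. Of the 34 other pathway genes 0 passed with edgeR, and 3 had an unadjusted p under 0.05.

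The call of *Rph3a* depended on the fit. It did not pass with the mouse as a block (adjusted p = 0.17, range over all alternatives 4e-06 to 0.87), nor without mouse 1, 2, 5, 7, or 8 (0.065, 0.16, 0.2, 0.22, and 0.21), each leaving 0 members called, while its fold change stayed negative in each. With cells positive from 1 read its log2 fold change was -0.66 (adjusted p = 0.87) over 7 mice, and from 50 reads -1.29 (0.18) over 6 mice. The size of the fall changed with the limit that defines the class and, at 1 read, the set of mice changed too. Of the 49 *Neurod6*+ cells, 39 were also *Slc17a6*+ and 18 *Aldh1a7*+, and the part of these classes in the values was not tested. Summed GABA neuron markers had medians over mice of 51.6 and 250.7 CPM (ranges 2.47–332.97 and 28.5–1751) in *Neurod6*+ and *Neurod6*- cells. In the same order, glutamate neuron markers had medians of 220.1 and 117.1 CPM (ranges 64.4–479.4 and 36.9–278.2) and oligodendrocyte markers of 31.8 and 19.5 CPM (ranges 18.6–130.6 and 7.44–85.1). Their part in the fall of *Rph3a* was not tested.

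**Figure D3:**
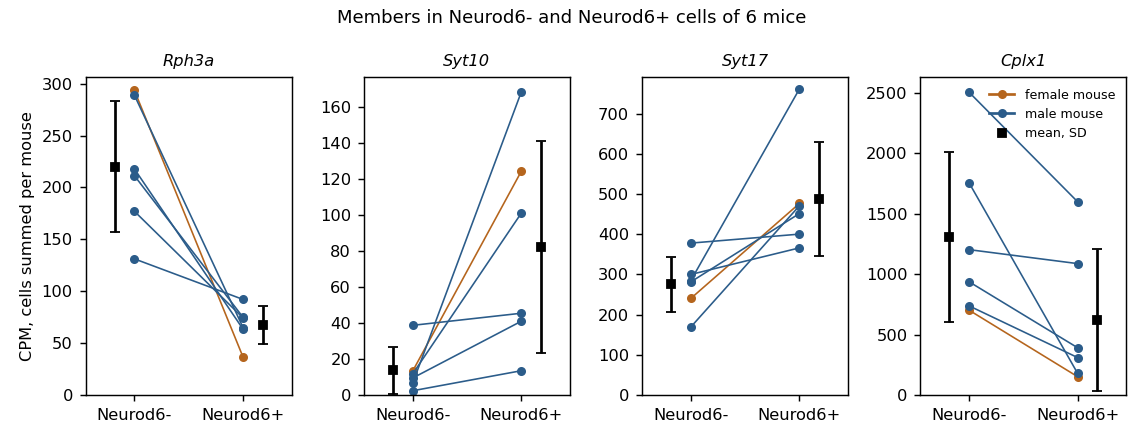
CPM of 4 members in the *Neurod6*- and *Neurod6*+ cells of 6 mice; each line joins the classes of 1 mouse, colored by labelled sex, and squares show mean and SD. *Rph3a* falls in each mouse, from 131.1–293.4 to 36.5–92.0 CPM, *Syt10* and *Syt17* lie higher in *Neurod6*+ cells of each mouse, and *Cplx1* lies lower.

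*Aldh1a7*, an aldehyde dehydrogenase gene, divided the *Th*-rich cells of mice 2–8 (4–28 positive and 4–18 negative cells per mouse). Of the 74 *Aldh1a7*+ cells, 18 were also *Neurod6*+, and *Neurod6* was 1.99-fold higher in *Aldh1a7*+ cells. The paper did not find *Neurod6* in the substantia nigra, so the class is not taken here as one of nigral cells. Of 8 members at 10 CPM or more with 1 direction in 7 of 7 mice, *Cplx1*, *Rab3c*, *Sv2b*, *Sv2c*, and *Vamp7* had higher values in *Aldh1a7*+ cells and *Rims2* lower ones, but 0 members passed with edgeR, against 0.0909% of all genes that rose and 0.140% that fell. At an unadjusted p under 0.05, 10 members were higher (15.6%, against 3.60% of all genes) and 8 lower (12.5%, against 4.40%). Values were higher in *Aldh1a7*+ cells of each of the 7 mice for 6 members (9.38%, against 1.26% of all genes) and lower in each for 4 (6.25%, against 3.65%). DESeq2 called 6 members (9.38%, against 1.40% of all genes), among them *Cplx1* (adjusted p = 0.0068), *Sv2b* (0.0047), *Rab3c* (0.023), and *Syt1* (0.036). *Cplx1* (0.0089) and *Sv2b* (0.0021) also passed with limma. With all retained cells edgeR called 4 (6.25%, against 0.727% of all genes): *Cplx1*, *Sv2b*, *Rab3c*, and *Syt1* (adjusted p = 0.039, 0.039, 0.037, and 0.043). With cells of at least 100000 counts it called 1, *Cplx1* (1.56%, against 0.359% of all genes). When the mouse was a block, edgeR called 2 (3.12%, against 0.240% of all genes): *Cplx1* (adjusted p = 0.017, range over alternatives 0.0068 to 0.85) and *Rab3c* (0.038, range 0.023 to 0.91).

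*Cplx1* was at 833.6–3038 CPM (median 2042) in *Aldh1a7*+ and 452.2–1746 CPM (median 602.4) in *Aldh1a7*- cells, with overlap between but not within mice (log2 fold change 1.37, SE 0.35, adjusted p = 0.15). *Rab3c*, a Rab3 of secretory vesicles, was at 1165–2890.2 CPM (median 2476) and 674.3–1769 CPM (median 1139.9) (log2 fold change 0.98, SE 0.26, adjusted p = 0.18). *Sv2b* was at 85.1–240.6 CPM (median 160.98) and 23.0–129.9 CPM (median 61.7) (log2 fold change 1.38, SE 0.33, adjusted p = 0.11), and *Sv2c* averaged 126.5 ± 74.6 and 60.7 ± 44.4 CPM (log2 fold change 1.13, SE 0.42, adjusted p = 0.46). *Sv2a*, their more abundant paralog, averaged 374.7 ± 61.3 and 395.3 ± 137.2 CPM (log2 fold change 0.04, SE 0.19, adjusted p = 0.98).

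*Rims2*, a scaffold of the active zone, was at 2.31–107.8 CPM (median 37.7) in *Aldh1a7*+ and 61.5–164.03 CPM (median 120.1) in *Aldh1a7*- cells (log2 fold change -1.40, SE 0.47, adjusted p = 0.36). *Vamp7*, a SNARE of late endosomes and neurite growth, averaged 167.4 ± 46.9 and 102.8 ± 29.5 CPM and was higher in 7 of 7 mice (log2 fold change 0.79, SE 0.25, adjusted p = 0.29). *Syt1* averaged 2409.9 ± 480.6 and 1767 ± 401.04 CPM (log2 fold change 0.54, SE 0.15, adjusted p = 0.2), and *Cplx2* 289.4 ± 30.0 and 199.1 ± 57.9 CPM (log2 fold change 0.63, SE 0.18, adjusted p = 0.25), each higher in 6 of 7 mice. *Rph3a* was lower in 6 of 7 mice, at 34.6–181.1 CPM (median 81.8) against 117.6–267.8 CPM (median 193.02) (log2 fold change -0.96, SE 0.30, adjusted p = 0.29). *Syt10* averaged 27.2 ± 26.3 and 33.1 ± 25.5 CPM (log2 fold change -0.12, SE 0.89, adjusted p = 0.99). Of the 34 other pathway genes 0 passed, and the unadjusted p was under 0.05 for 5. *Slc6a3* was 4621 ± 946.3 and 2507 ± 759.8 CPM in the classes, higher in 7 of 7 mice (log2 fold change 0.98, SE 0.20, adjusted p = 0.0526). Summed GABA neuron markers had medians over mice of 2.54 and 297.2 CPM (ranges 0.787–254.7 and 1.43–1350.2) in *Aldh1a7*+ and *Aldh1a7*- cells. In the same order, glutamate neuron markers had medians of 71.8 and 188.8 CPM, dopamine neuron markers of 17548 and 13228 CPM (ranges 15773–21135 and 10434–17926), and oligodendrocyte markers of 3.30 and 39.9 CPM (ranges 0–50.2 and 19.6–90.0). Their part in the differences was not tested.

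**Figure D4:**
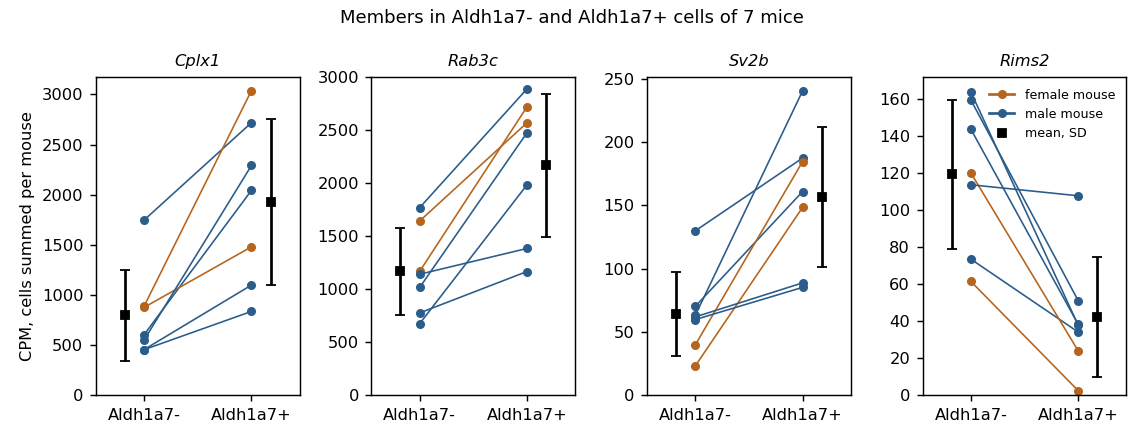
CPM of 4 members in the *Aldh1a7*- and *Aldh1a7*+ cells of 7 mice; each line joins the classes of 1 mouse, colored by labelled sex, and squares show mean and SD. *Cplx1*, *Rab3c*, and *Sv2b* lie higher in *Aldh1a7*+ cells of each mouse and *Rims2* lower. None passed with edgeR on these *Th*-rich cells, though *Cplx1* and *Rab3c* passed there with the mouse as a block.

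*Slc17a6* encodes the vesicular glutamate transporter VGLUT2, and the comparison asked whether DA neurons equipped to release glutamate differ in release genes. All 8 mice had both classes among *Th*-rich cells (4–20 positive and 4–32 negative). With edgeR 0 members passed, against 0.0413% of all genes that rose and 0% that fell. At an unadjusted p under 0.05, 7 members were lower in *Slc17a6*+ cells (10.9%, against 2.40% of all genes) and 4 higher (6.25%, against 3.06%). *Cplx1* was lower in *Slc17a6*+ cells of 8 of 8 mice, at 181.7–1549 CPM (median 602.3) against 821.6–2659 CPM (median 1646) (log2 fold change -1.32, SE 0.35, adjusted p = 0.39). It passed with the mouse as a block (adjusted p = 0.023; 1 member, 1.56%, against 0.0496% of all genes) and was the 1 member that DESeq2 called (1.56%, against 0.388% of all genes; adjusted p = 0.022, range over alternatives 0.022 to 1).

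*Sv2b* was also lower in 8 of 8 mice, at 0.456–121.5 CPM (median 66.2) against 45.4–189.5 CPM (median 106.1) (log2 fold change -0.88, SE 0.55, adjusted p = 0.96). *Stxbp6*, known as amisyn, was higher in 8 of 8 mice, averaging 20.0 ± 14.1 and 5.45 ± 5.98 CPM (log2 fold change 1.80, SE 0.70, adjusted p = 0.87). These 3 members were the only ones at 10 CPM or more with 1 direction in every mouse. At any level, 1 member was higher in each mouse (1.56%, against 1.17% of all genes) and 2 were lower (3.12%, against 0.562%). *Cplx2* averaged 180.01 ± 44.1 and 298.8 ± 104.1 CPM, lower in 7 of 8 mice (log2 fold change -0.78, SE 0.24, adjusted p = 0.52). *Syt10* reached 10 reads in a mean of 45.8% of *Slc17a6*+ and 22.9% of *Slc17a6*- cells, higher in 7 of 8 mice and equal at 0 in mouse 4 (exact permutation test, p = 0.015625, adjusted p = 0.19 over 12 tests), and its level gave a log2 fold change of 0.87 (adjusted p = 0.99). *Rph3a* averaged 154.9 ± 65.1 and 211.2 ± 94.2 CPM (log2 fold change -0.50, SE 0.31, adjusted p = 0.96). *Slc6a3* was lower in *Slc17a6*+ cells of 8 of 8 mice (log2 fold change -0.61, SE 0.18, adjusted p = 0.51). Of the 34 other pathway genes 0 passed, and 6 had an unadjusted p under 0.05. Summed GABA neuron markers had medians over mice of 285.2 and 42.3 CPM (ranges 1.17–1119 and 1.67–748.1) in *Slc17a6*+ and *Slc17a6*- cells. In the same order, oligodendrocyte markers had medians of 38.5 and 5.97 CPM (ranges 14.7–105.4 and 0–101.1) and dopamine neuron markers of 14844 and 16069 CPM (ranges 11676–17298 and 11707–19258). Their part in the differences was not tested. Of the 93 *Slc17a6*+ cells, 39 were *Neurod6*+ and 25 *Aldh1a7*+, so the 3 comparisons share cells and are not independent.

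*Gad1*, a gene for an enzyme that makes GABA, reached 10 reads in 15 of all cells used, and 3 mice (1, 7, and 8) had at least 3 such cells (6, 3, and 4). With edgeR 0 members and 0 of all genes passed (0%). The unadjusted p was under 0.05 for 8 members that were lower (12.5%, against 5.81% of all genes) and 1 that was higher (1.56%, against 2.39%). All 3 mice had lower values in *Gad1*+ cells for 20 members (31.2%, against 21.3% of all genes) and higher values for 5 (7.81%, against 10.2%). The 1 member higher at that p was *Rab3b*, at 1437, 553.1, and 998.4 CPM in *Gad1*+ and 72.0, 121.96, and 126.04 CPM in *Gad1*- cells of mice 1, 7, and 8, without overlap (log2 fold change 3.22, SE 0.42, adjusted p = 0.17). Its paralogs *Rab3a* and *Rab3c* gave log2 fold changes of -0.13 and -1.03 (adjusted p = 0.96 and 0.65). *Vamp1*, a synaptobrevin, was at 0.250, 0.406, and 0.861 CPM and 2.97, 16.5, and 36.4 CPM (log2 fold change -5.15, SE 1.47, adjusted p = 0.49). DESeq2 called these 2, *Rab3b* and *Vamp1* (3.17% of 63 members with an adjusted p, against 2.44% of all genes; adjusted p = 1.5e-09 and 0.017, ranges over alternatives 1.5e-09 to 0.78 and 0.017 to 0.78).

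*Rph3a* was at 89.4, 52.8, and 21.0 CPM in *Gad1*+ and 221.04, 193.1, and 156.9 CPM in *Gad1*- cells, lower in 3 of 3 mice (log2 fold change -1.79, SE 0.55, adjusted p = 0.5). *Unc13c* was at 31.8, 0, and 3.73 and 59.8, 89.5, and 64.6 CPM (log2 fold change -2.60, SE 1.41, adjusted p = 0.73). *Unc13b* averaged 1.08 ± 1.01 and 18.4 ± 11.2 CPM, and *Syt9*, a fast calcium sensor, 0.772 ± 1.10 and 13.6 ± 13.7 CPM, with adjusted p of 0.56 and 0.61. Of the 34 other pathway genes 0 passed, and 6 had an unadjusted p under 0.05. Summed dopamine neuron markers were at 4789–9678 and 11203–13879 CPM in *Gad1*+ and *Gad1*- cells and glutamate neuron markers at 14.3–47.9 and 212.8–359.7 CPM, both lower in *Gad1*+ cells without overlap, and their part in the differences was not tested. Oligodendrocyte markers summed to 45.9–7619 CPM in *Gad1*+ and 12.7–73.4 CPM in *Gad1*- cells and astrocyte markers to 0–5.26 and 0.185–373.3 CPM, and 4 of the 15 *Gad1*+ cells carried glial markers; without the cells with glial markers 2 mice were left and 0 members passed.

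Between the 5 male and 3 female mice, 0 members passed with edgeR, against 0.033% of all genes that were higher and 0.00826% that were lower in males, and DESeq2 called 0 (against 0.898% of all genes). The sexes are those of the sample labels; the text on the series gives 6 males and 2 females. All 3 females were run on the C1 machine SMEAGOL, with males 2 and 7, and the other 3 males on FRODO, and the females were 25, 33, and 36 d old against 24–28 d for the males. The part of age in the values was not tested. With the sequencing lane as a covariate and without mouse 4, 0 members passed, against 0.033% of all genes. The unadjusted p was under 0.05 for 4 members higher (6.25%, against 3.57% of all genes) and 3 lower in males (4.69%, against 4.23%), 7 in all, and for 1 member on the 5 mice of SMEAGOL alone, where 0 passed. *Syt1* was at 1699.9, 1947, 2699, 1782, and 1648 CPM in males (mice 2, 3, 5, 7, and 8) and 1171, 1348, and 1351 CPM in females (mice 1, 4, and 6), without overlap (log2 fold change 0.60, SE 0.20, adjusted p = 0.52). *Syt17* was at 308.2, 373.6, 342.4, 303.9, and 325.6 CPM in males and 227.01, 241.9, and 211.4 CPM in females (log2 fold change 0.56, SE 0.19, adjusted p = 0.52). *Vamp1* was at 19.5, 13.3, 21.8, 14.4, and 29.9 and 2.12, 3.41, and 10.9 CPM (log2 fold change 1.84, SE 0.63, adjusted p = 0.52). These 3 had no overlap between the sexes, with the males higher.

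The males were lower for *Stxbp2*, at 4.63, 9.11, 9.05, 6.70, and 7.09 CPM against 87.9, 16.7, and 14.5 CPM (log2 fold change -2.39, SE 0.59, adjusted p = 0.39), with the highest value in mouse 1. Without the cells with glial markers its log2 fold change was -1.47 (adjusted p = 0.5). *Syt16*, a synaptotagmin thought not to bind calcium, was at 47.7, 32.7, 26.8, 30.5, and 55.3 CPM in males and 70.8, 81.2, and 60.1 CPM in females (log2 fold change -0.86, SE 0.30, adjusted p = 0.54), and *Stx6*, a SNARE of the trans-Golgi network, averaged 20.2 ± 5.07 and 36.6 ± 14.6 CPM (log2 fold change -0.84, SE 0.38, adjusted p = 0.64). In all, 7 members did not overlap between the sexes, 4 higher in males, with *Stx7* the fourth (6.25%, against 2.74% of all genes), and 3 lower (4.69%, against 2.71%). *Th*-poor cells made up 7 of 18, 4 of 12, and 4 of 17 cells of the female mice and 5 of 34, 1 of 45, 4 of 38, 2 of 24, and 1 of 21 cells of male mice 2, 3, 5, 7, and 8, and the part of this mix in the values was not tested here beyond the fit on *Th*-rich cells alone, which also gave 0 members. Summed dopamine neuron markers were at 11838–17304 and 9195–11798 CPM in males and females, without overlap, and their part in the values was not tested. *Rph3a* averaged 149.2 ± 24.6 CPM in males and 172.9 ± 36.9 CPM in females, and *Syt10* 30.1 ± 19.0 and 32.2 ± 16.9 CPM (adjusted p = 0.86 and 0.99). Of the 34 other pathway genes 0 passed, with 3 at an unadjusted p under 0.05.

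Across the 6 comparisons, which share cells and mice, the families can be set side by side. *Cplx1* had log2 fold changes of -4.08 in *Th*-poor, -1.32 in *Slc17a6*+, -1.13 in *Gad1*+, -1.02 in *Neurod6*+, and 1.37 in *Aldh1a7*+ cells, of which the first passed with edgeR, and those in *Slc17a6*+ and *Aldh1a7*+ cells with the mouse as a block, the latter also with cells of at least 100000 counts (adjusted p = 0.0464) and with all retained cells. *Cplx2* had -2.16, -0.78, 0.67, -0.14, and 0.63 in the same order, and none passed with edgeR. *Rph3a* was below 0 in each of the 6, from -0.21 in males to -1.79 in *Gad1*+ cells, and passed in *Neurod6*+ cells with edgeR, though not with the mouse as a block. *Syt10* ranged from -0.95 in *Gad1*+ to 2.65 in *Neurod6*+ cells and passed in none with edgeR, and in *Neurod6*+ cells with DESeq2. *Sv2a* stayed between -0.19 and 0.26, whereas *Sv2c* ran from -5.12 to 1.13.

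**Figure D5:**
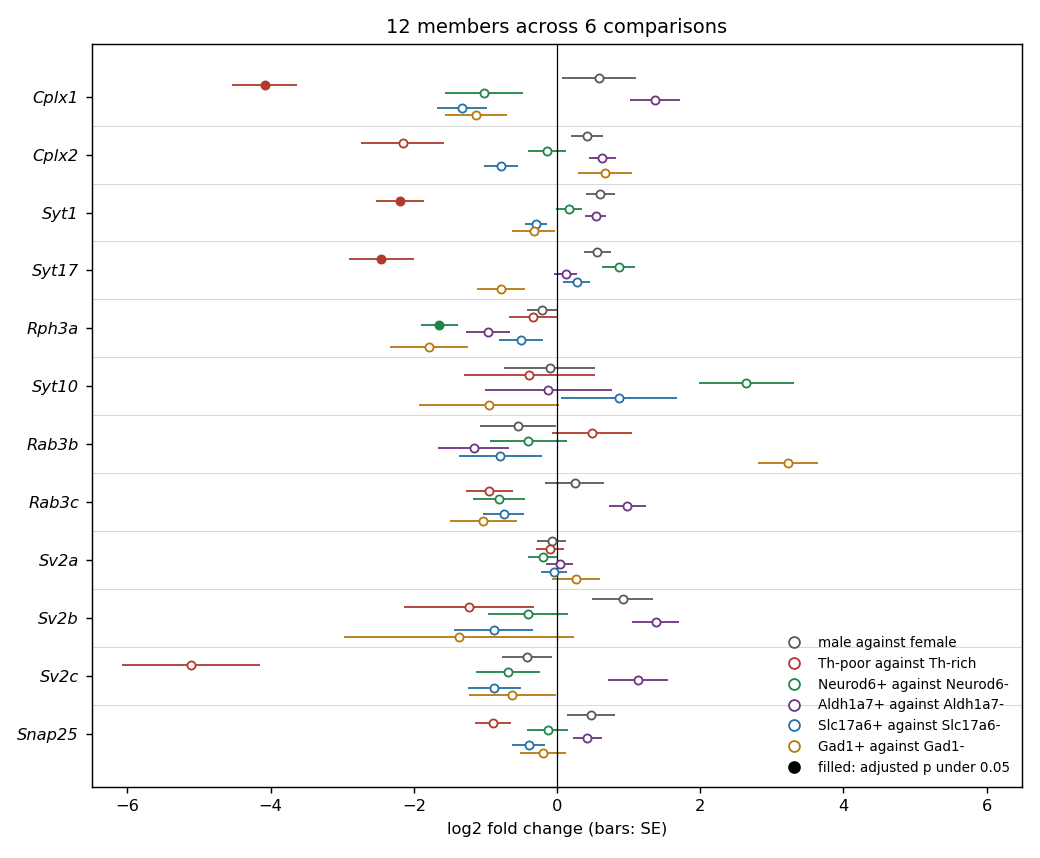
Log2 fold change with its SE for 12 members in the 6 comparisons; filled points have an adjusted p under 0.05 with edgeR. The filled points are *Cplx1*, *Syt1*, and *Syt17* in *Th*-poor against *Th*-rich cells and *Rph3a* in *Neurod6*+ against *Neurod6*- cells, and *Sv2a* stays near 0 throughout.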

How the data were processed

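Counts were deposited by the authors without normalization, 1 library per cell. They named Trimmomatic 0.3.2, TopHat2 2.1.1, and featureCounts 1.5.0-p3 and the build GRCm38 in the processing notes, and left out reads on more than 1 gene, so that near-identical genes lose reads. No molecular identifiers were used, so counts are reads, and a count measures amplified cDNA. Entries of spike-ins and transgenes (0.00457% of counts) were left out, 5721 of 47082 entries held no value, and 0 columns lacked a label. Separate tables of gene names, sample labels, and sequencing metrics were not used here, and the sex of each mouse came from the label of its samples.

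Cells with at least 500000 counts were kept, and counts were added up over the cells of a mouse or, between classes, over its cells in each class if both held 3 or more (a class is positive from 10 reads). Genes reaching 10 counts in 10 or more cells were tested with edgeR 4.0.16 (R 4.3.3; TMM, quasi-likelihood test, Benjamini-Hochberg over 12105 genes, threshold 0.05). The SE is the log2 fold change over the square root of F. Mouse and C1 run cannot be told apart. Both classes of a mouse come from the same animal, and their deviations correlated at 0.03–0.30, so a fit with the mouse as a block was the paired alternative. DESeq2 1.42.0 and limma 3.58.1 (log2 of CPM + 1, mean over cells) were also run, and the code was tested on simulated data. Shares of cells were compared with exact two-sided permutation tests over mice. Figures and tables used Python 3.11.15.

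Members and lists were chosen with earlier results of these data known. The genes named are *Rph3a* and *Syt10*, called members, up to 5 of the highest per kb in each role, up to 6 per comparison with the largest change in 1 direction in every mouse and at least 10 CPM, and paralogs of these. Other members named with values (*Snap25*, *Rab3c*, *Cplx2*, *Syt1*, *Syt7*) are among the highest or are paralogs. Exon lengths were found for 63 of 64 members (not *Vamp7*) and promoters for 48. Some genes of the lists are counted but not reported by name here. The sex labels of the samples were used (5 male and 3 female mice), whereas the text on the series gives 6 and 2.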

Additional observations from a re-analysis of the deposited data

Results flagged for a closer look

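Values of the named members were compared within each group of 4 to 10 mice, and in 8 of 75 groups 1 mouse stood apart from the others by more than Dixon's 95% limit allows, on the log2 scale. Chance flags about 1 in 20 groups. Between the sexes, *Stx6* was at 11.4 CPM in male mouse 7 and 20.7–24.4 CPM in the other males. In *Th*-rich cells of mouse 4, *Syt10* was at 0.371 CPM against 20.5–53.8 CPM in the other mice, and *Sv2c* was at 218.3 CPM against 64.3–91.0 CPM; that mouse had 8 *Th*-rich cells. In *Neurod6*+ cells of mouse 5, of which there were 6, *Syt17* was at 761.9 CPM against 366.2–476.8 CPM. In *Aldh1a7*- cells, *Rph3a* was at 117.6 CPM in mouse 8 against 189.1–267.8 CPM, and *Vamp7* at 47.2 CPM in mouse 2 against 90.5–143.9 CPM. *Rims2* was at 2.31 CPM in the 4 *Aldh1a7*+ cells of mouse 4 against 23.9–107.8 CPM. *Sv2b* was at 0.456 CPM in the 6 *Slc17a6*+ cells of mouse 1 against 23.6–121.5 CPM. No explanation was tested for these values.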

How the results depend on the processing

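Shares of all genes called in the same fit stand in parentheses, and those of the main fits stand beside the results above. The number of members past the threshold changed with the processing in each comparison of cell classes and in none of the fits between the sexes, where it was 0 in all (0.00826–0.898%). For *Th*-poor against *Th*-rich cells it was 3, and it moved to 6 with DESeq2 (4.03%), 5 with limma on mean log2 CPM over cells (1.02%), 0 where at least 5 cells per mouse and class were asked for (0%, with 2 mice left), and 0 with a *Th* limit of 3000 CPM (0.198%). It was 2 with relative log expression factors (0.231%), no gene filter (0.0625%), thinning (0.157%), and the replicate block (0.132%), and 4 with filterByExpr (0.424%) and with cells of at least 100000 counts (1.65%). Without 1 mouse it ranged from 0 to 3 (0.0248–0.223%). For *Neurod6*+ against *Neurod6*- cells it was 1, and it moved to 3 with DESeq2 (1.02%) and to 0 with no gene filter, filterByExpr, cells of at least 100000 counts, the replicate block (mouse), at least 5 cells per mouse and class, all retained cells, and positive from 1 or from 50 reads (0.00804–0.107% over these fits). Without 1 mouse it ranged from 0 to 1 (0.00826–0.0909%). For *Aldh1a7*+ against *Aldh1a7*- cells it was 0, and it moved to 6 with DESeq2 (1.40%), 1 with cells of at least 100000 counts (0.359%), 3 with limma (0.529%), 2 with the replicate block (0.240%), and 4 with all retained cells (0.727%). For *Slc17a6*+ against *Slc17a6*- cells it was 0, and 1 with DESeq2 (0.388%) and with the replicate block (0.0496%). For *Gad1*+ against *Gad1*- cells it was 0, and 2 with DESeq2 (2.44%) and 1 with no gene filter (0.0224%); at least 5 cells per mouse and class left 1 mouse and could not be fitted. Besides the calls given beside the results, the block changed no other. Leaving out cells with glial markers (*Th*, *Gad1*, and sex) and *Gad1*+ cells (*Th*) was chosen after seeing the data. The causes were not tested.

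Of 929 refitted fold changes of named members, 14 turned sign, all without passing the threshold. Between the sexes, *Syt10* turned to 0.040 with cells thinned to 500000 counts, 0.17 on 1 C1 machine, and above 0 without mouse 2, 3, or 6 (range without 1 mouse -0.43 to 0.37), and *Cplx1* to -0.026 on 1 C1 machine. In *Th*-poor cells, *Syt10* turned to 0.85 with limma and *Doc2b* to -0.95 with a *Th* limit of 300 CPM. In *Aldh1a7*+ cells, *Syt10* turned to 0.64 with positive from 1 read and above 0 without mouse 5 or 8 (range without 1 mouse -0.51 to 0.21). *Syt17* turned to -0.034 in *Slc17a6*+ cells with all retained cells. In *Gad1*+ cells, *Syt1* turned to 0.034 with positive from 50 reads and *Unc13b* to 0.051 with positive from 1 read. The small classes, of 3 to 7 cells in some mice, and members of a few CPM limit what could be seen, and a missed threshold does not show that 2 classes are alike.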

Other observations

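Genes of the release pathway outside the families above gave further values, none of which passed the test with edgeR. *Sncg* averaged 20.3 ± 40.6 and 709.6 ± 455.7 CPM in *Th*-poor and *Th*-rich cells (log2 fold change -5.03, SE 1.27, adjusted p = 0.13, edgeR). *Bsn*, the active zone scaffold bassoon, averaged 194.2 ± 69.7 CPM in *Aldh1a7*+ and 101.5 ± 29.3 CPM in *Aldh1a7*- cells, higher in 7 of 7 mice (log2 fold change 1.04, SE 0.24, adjusted p = 0.11). *Cadps*, which primes dense-core vesicles, was also higher in 7 of 7 mice (log2 fold change 0.57, SE 0.14, adjusted p = 0.13). *Synpr* (synaptoporin) averaged 0.287 ± 0.497 CPM in *Gad1*+ and 21.7 ± 10.8 CPM in *Gad1*- cells. *Otof* (otoferlin), known as the calcium sensor of inner hair cells, averaged 144.4 ± 98.5 CPM in *Gad1*+ and 6.39 ± 9.88 CPM in *Gad1*- cells, higher in 3 of 3 mice (log2 fold change 4.52, SE 1.41, adjusted p = 0.5). These 5 genes were chosen after their values were seen.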
